A study of Homo sapiens with 4 samples.

Results

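EGF-type ligands and their ERBB receptors were followed in U87MG cells, an established human glioblastoma line, after transfection with a NeuroD2 expression vector. The members were every probe set whose platform symbol was exactly EGFR, ERBB2, ERBB3, ERBB4, HBEGF, EREG, AREG, TGFA, NRG1 or BTC. That rule found 39 probe sets of 9 genes, among 44988 probe sets of 18132 genes with 1 symbol. AREG was not analysed here. The control group was U87MG cells transfected with the PCMV control vector (2 arrays), and the other group was U87MG cells transfected with the NeuroD2 expression vector (2 arrays). All cells grew in DMEM with serum at 0.2% oxygen and were harvested 48 hours after transfection, so the controls were hypoxic and transfected too. The labels number the arrays as biological replicates without saying whether cells were plated or transfected apart, so the p-values cover the spread between these samples, which may be technical. U87MG is 1 cell line, and the share of cells that took up a vector is not given in the sources used here. In RNA from whole cultures, a change in a few cells and a smaller change in all cells cannot be told apart.

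The ERBB receptors are tyrosine kinases of the cell surface that pair up when a ligand binds. EGF-type ligands are made as membrane-anchored precursors and are released by metalloproteases. EGFR binds EREG, HBEGF, TGFA, AREG and BTC, while neuregulins such as NRG1 bind ERBB3 and ERBB4; ERBB2 has no ligand of its own and serves as a partner. Downstream, the receptors feed the RAS-ERK and PI3K pathways, and EGFR is amplified or mutated in many glioblastomas. NeuroD2 is a helix-loop-helix transcription factor that drives neuronal differentiation and binds E-box DNA. The comparison asks how its overexpression changes the ligand and receptor transcripts of these cells.

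NEUROD2 itself was read at 5.40 ± 0.08 with the control vector and 7.60 ± 0.32 with the NeuroD2 vector on its brightest probe set (log2, SD, n = 2 each; limma adjusted p = 0.0044 over genes). Leaving out control replicate 1 or 2 gave differences of 2.25 and 2.14 on that probe set. Leaving out NeuroD2 replicate 1 or 2 gave 2.42 and 1.97. These fits have 1 array in a group, too few to decide a call. The other 2 NEUROD2 probe sets differed by -0.21 and -0.07 (adjusted p = 0.511 and 0.682 over probe sets), and the mean of the 3 differed by 0.64 (adjusted p = 0.0130). Between arrays of 1 group, values correlated at r = 0.998 to 0.999 across genes, which are not independent replicates. The 18 hybridisation spike probe sets averaged 9.56 and 9.90 on the control arrays and 10.10 and 10.13 on the NeuroD2 arrays. The 24 poly-A spike probe sets averaged 6.95 on control replicate 1 and 7.96 to 8.03 on the other 3 arrays. These control RNAs were thus 0.39 and 0.53 higher with the NeuroD2 vector, and 0.22 and 0.02 higher without control replicate 1. The results below come from the same arrays, and the part of this shift in them was not tested. The 23 background probe sets, which differ in GC content, read between 2.80 and 10.997, so no member was called absent.

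Of 29 measured genes in 7 marker lists, 1 rose, 3 fell and 25 did not pass. Across all genes 1.81% rose and 2.96% fell. VIM, the mesenchymal filament gene, was read at 14.15 and 14.14 (log2 group means, control then NeuroD2 vector) and the adhesion receptor gene CD44 at 12.83 and 12.85. The leukocyte gene PTPRC was read at 3.09 and 3.49 (adjusted p = 0.112). CDKN2A and MTAP, which U87MG is known to have lost, were read at 4.64 and 4.71, and at 6.05 and 6.38. CDKN2B, the remaining gene of that list, was read at 3.73 and 4.10. The differences of MTAP (0.33) and CDKN2B (0.36) did not pass and were as large as several uncalled differences given below. Mean levels of the 5 epithelial or keratinocyte markers lay between 3.66 and 5.60, and 0 of them passed the test (2 had an unadjusted p below 0.05, as did 21.8% of all genes). The marker that rose was the matrix gene TNC (0.45) and those that fell were CHI3L1 (-0.51), SNAP25 (-0.59) and SLC1A3 (-0.41), all chosen for naming once their values were known. Their part in the results below was not tested.

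The EGFR ligand genes EREG and HBEGF rose with the NeuroD2 vector, and TGFA, another EGFR ligand, fell. On the brightest probe set of each gene EREG was 1.84-fold and HBEGF 1.73-fold higher, and TGFA 1.89-fold lower. NRG1, BTC and the 4 receptors did not pass on theirs. In all, 2 of the 9 genes rose, 1 fell and 6 did not pass, that is 33.3% called against 4.77% of all genes tested (1.81% rose and 2.96% fell). The groups did not overlap in 6 of the 9 genes, or 66.7% of them against 50.8% of all genes. The median absolute difference was 0.30 for the 9 genes and 0.11 for all genes. Among the 39 probe sets, 8 rose, 2 fell and 29 did not pass, or 25.6% called against 3.03% of all probe sets (1.32% rose and 1.7% fell). The groups did not overlap on 26 of the 39, or 66.7% against 49.4% of all probe sets. The members were chosen with earlier results of these data known, so their shares are no independent evidence.

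**Figure D1:**
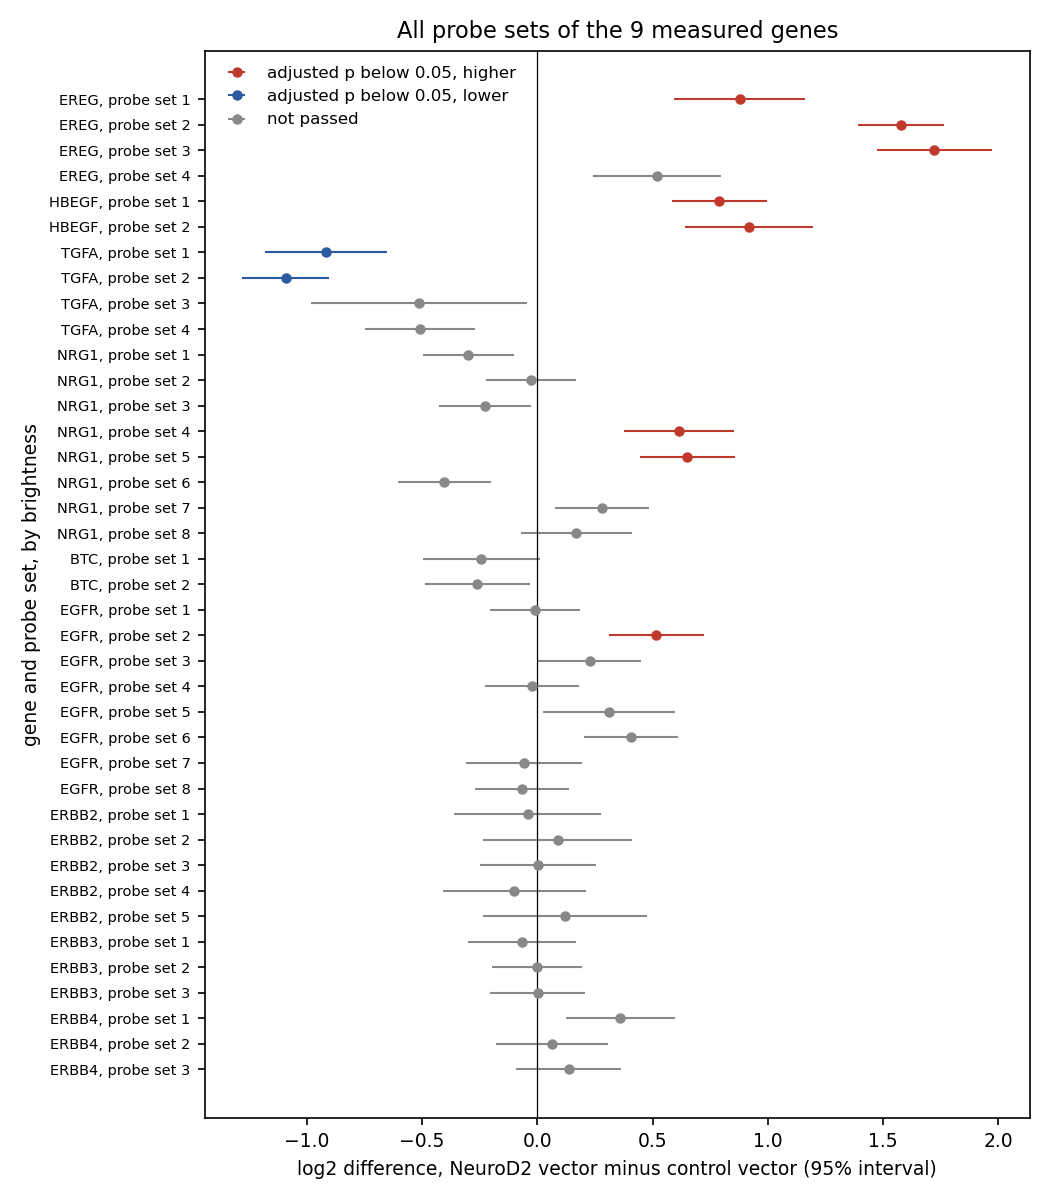
Log2 difference between the NeuroD2 vector and the control vector for each of the 39 probe sets, with limma's 95% interval (n = 2 arrays per group); probe sets are numbered by brightness within their gene. All 4 EREG and both HBEGF probe sets lie above 0 and all 4 TGFA probe sets below it, while those of NRG1 run from -0.40 to 0.65 and those of EGFR from -0.07 to 0.52.

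EREG encodes epiregulin, a ligand of EGFR and ERBB4. Its brightest probe set was read at 10.997 and 11.295 on the control arrays and at 12.02 on each NeuroD2 array. The second-brightest was read at 8.35 and 8.37 against 9.93 and 9.94, and the third at 6.69 and 6.92 against 8.53 on each NeuroD2 array. On the dimmest, the values were 4.38 and 4.61 against 4.92 and 5.10. On all 4 probe sets both NeuroD2 arrays were above both control arrays. The groups did not overlap on 49.4% of all probe sets. In the fit over all probe sets the differences were 0.88 (standard error 0.12, adjusted p = 0.0256), 1.58 (0.08, adjusted p = 0.0023), 1.72 (0.10, adjusted p = 0.0036) and 0.52 (0.11, adjusted p = 0.0742) in order of brightness. These are 1.84-fold, 2.98-fold, 3.30-fold and 1.43-fold. The difference was thus smallest on the brightest and the dimmest probe sets. In the fit over genes, the brightest probe set passed (95% interval 0.60 to 1.15, adjusted p = 0.0191), and the mean of the 4 probe sets differed by 1.17 (adjusted p = 0.0013).

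HBEGF encodes heparin-binding EGF-like growth factor, which is also anchored to heparan sulfate. Its brighter probe set was read at 9.30 and 9.39 on the control arrays and at 10.17 and 10.10 on the NeuroD2 arrays. The dimmer one was read at 7.13 and 7.41 against 8.18 and 8.19. Both probe sets were higher on both NeuroD2 arrays, by amounts close to each other. Of all probe sets, 49.4% did not overlap between groups. The differences were 0.79 (95% interval 0.59 to 0.996, adjusted p = 0.0165 over probe sets) and 0.92 (0.64 to 1.19, adjusted p = 0.0216). Over genes, HBEGF passed with an adjusted p of 0.0108.

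TGFA encodes transforming growth factor alpha, a ligand of EGFR alone. The brightest probe set was read at 8.20 and 8.30 on the control arrays and at 7.21 and 7.45 on the NeuroD2 arrays. On the second-brightest the values were 7.75 and 7.73 against 6.66 and 6.64. The other two, which share a source transcript in the annotation, were read at 6.53 and 6.17 against 5.59 and 6.08, and at 6.21 and 6.001 against 5.59 and 5.61. Both NeuroD2 arrays were below both control arrays on all 4 probe sets, where 49.4% of all probe sets did not overlap between groups. TGFA fell by 0.92 on the brightest (95% interval -1.18 to -0.65, adjusted p = 0.0204 over probe sets) and by 1.09 on the next (-1.28 to -0.91, adjusted p = 0.0062). The 2 dimmer probe sets differed by -0.51 each and did not pass (adjusted p = 0.213 and 0.0562). Over genes, TGFA passed with an adjusted p of 0.0146.

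**Figure D2:**
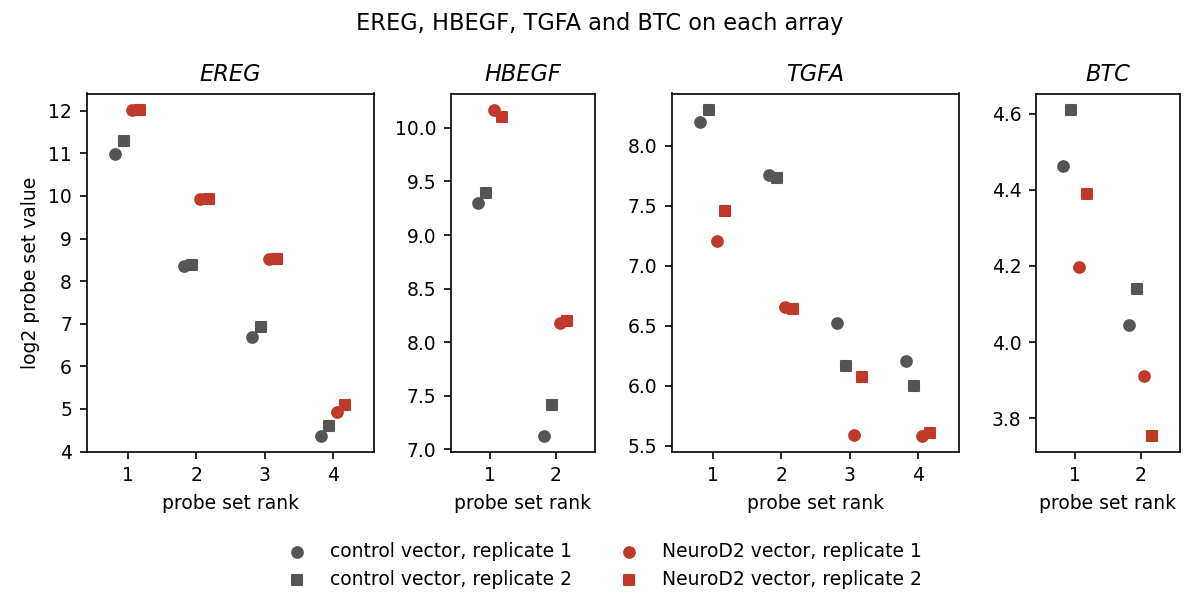
Log2 value of each probe set of EREG, HBEGF, TGFA and BTC on the 4 arrays (grey control vector, red NeuroD2 vector; circles replicate 1, squares replicate 2), numbered by brightness within each gene; each panel has its own scale, which does not start at 0. Red points lie above grey ones in every EREG and HBEGF column and below them in every TGFA and BTC column, by 0.24 and 0.26 in BTC.

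By limma, HBEGF and EREG did not pass over genes without any one of the arrays, with differences of 0.74 to 0.84 for HBEGF and 0.73 to 1.03 for EREG. TGFA passed only without NeuroD2 replicate 2 among these fits, with differences of -1.04 to -0.79. Without a control array no gene passed (smallest adjusted p of 0.141 with replicate 1 left out and 0.133 with replicate 2 left out). The EREG probe sets of brightness ranks 2 and 3 passed over all probe sets without either NeuroD2 array.

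The stretch of 250 bases before the start of each of these 3 genes is shown because EREG and HBEGF moved one way and TGFA the other. The sequences are from RefSeq (GRCh38.p14), 5′ to 3′ on the gene's strand, and run up to the base before the start: EREG at chr4:74364895-74365144 (+), HBEGF at chr5:140346604-140346853 (-) and TGFA at chr2:70553827-70554076 (-), the more upstream of its 2 listed starts. Capitals mark E-boxes of the form CANNTG, the TATA motif TATAAA, the AP-1 motif TGANTCA, the cyclic AMP response motif TGACGTCA and the NF-kB consensus. The form CAGCTG is also an E-box.
EREG: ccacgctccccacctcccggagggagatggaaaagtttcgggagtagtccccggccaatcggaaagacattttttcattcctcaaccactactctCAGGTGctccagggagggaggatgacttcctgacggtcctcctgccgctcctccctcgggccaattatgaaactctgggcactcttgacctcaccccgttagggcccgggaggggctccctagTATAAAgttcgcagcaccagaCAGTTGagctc
HBEGF: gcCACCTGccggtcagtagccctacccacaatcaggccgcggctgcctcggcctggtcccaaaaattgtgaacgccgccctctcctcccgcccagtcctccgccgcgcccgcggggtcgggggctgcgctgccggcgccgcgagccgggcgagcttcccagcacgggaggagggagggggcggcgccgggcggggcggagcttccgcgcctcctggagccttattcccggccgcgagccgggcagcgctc
TGFA: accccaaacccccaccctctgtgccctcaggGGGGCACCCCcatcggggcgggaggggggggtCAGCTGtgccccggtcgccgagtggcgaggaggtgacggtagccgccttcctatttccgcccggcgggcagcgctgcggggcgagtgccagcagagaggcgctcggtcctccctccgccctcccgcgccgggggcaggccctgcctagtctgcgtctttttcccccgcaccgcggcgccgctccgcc
EREG held E-boxes 155 and 11 bases before the start (counted to their farthest base) and a TATAAA 32 bases before it. HBEGF held 1 E-box, 248 bases before its start, and TGFA held 1, the form CAGCTG, 187 bases before its start. A match to the NF-kB consensus was found in the TGFA window, 219 bases before the start, and in neither of the other 2. The window before the second listed TGFA start, not shown, held 1 E-box, 42 bases before that start. It held no CAGCTG and no match to the NF-kB consensus. An E-box of any form was present in 61.8% of 35116 promoter windows of the same length, CAGCTG in 13.99%, TATAAA in 10.7% and the NF-kB consensus in 5.21%. None of the 3 windows shown held TGANTCA or TGACGTCA, which 6.57% and 1.65% of all windows hold. A match says only that these letters are present.

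EREG lies on chromosome 4 beside other ligand genes: in the RefSeq order of protein-coding genes EPGN precedes it, and AREG and BTC follow. Beyond EPGN and MTHFD2L lies a run of 9 CXC chemokine genes. Of these 5 rose, 0 fell and 4 did not pass, where 1.81% of all genes rose and 2.96% fell. From EREG outward, those that rose were CXCL2 (1.26), CXCL3 (1.58), CXCL5 (2.38), CXCL1 (1.15) and CXCL8 (1.09), which attract neutrophils (log2 differences, adjusted p from 0.00068 to 0.0052). MTHFD2L differed by 0.39 (adjusted p = 0.171), EPGN by 0.22 (adjusted p = 0.245) and BTC by -0.24 (adjusted p = 0.235). EREG was thus separated from the chemokine genes that rose by EPGN and MTHFD2L, which did not pass. This window was chosen after its values were seen.

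**Figure D3:**
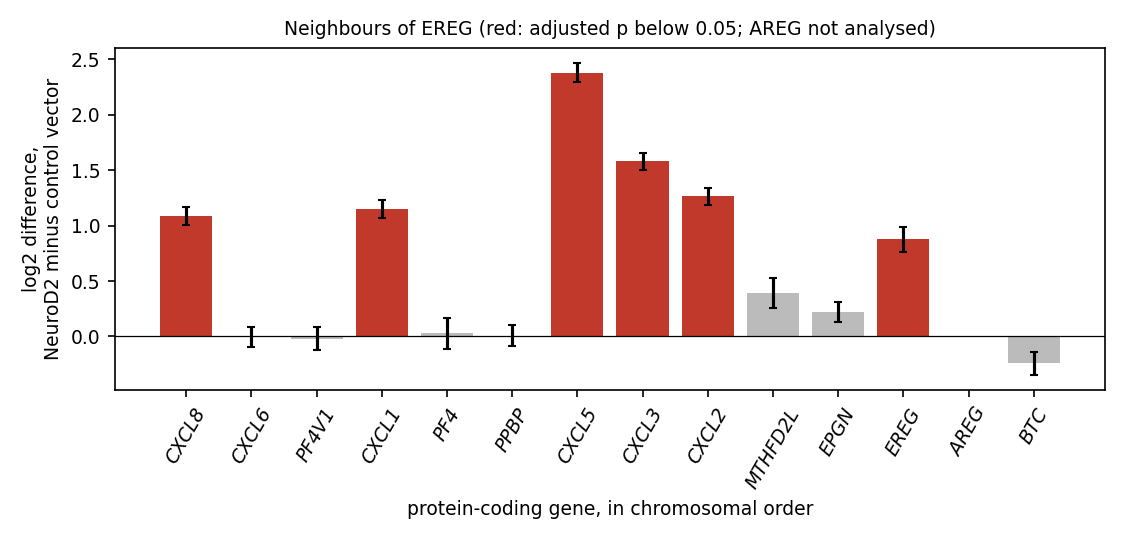
Log2 difference between the NeuroD2 vector and the control vector for the protein-coding genes from CXCL8 to BTC, in chromosomal order, each on its brightest probe set (bars; error bars are limma's standard error, n = 2 arrays per group). EREG (0.88) and 5 chemokine genes (1.09 to 2.38) passed the test, and EPGN and BTC beside EREG did not.

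BTC encodes betacellulin, which binds EGFR and ERBB4. Its brighter probe set was read at 4.46 and 4.61 on the control arrays and at 4.20 and 4.39 on the NeuroD2 arrays, and the dimmer one at 4.05 and 4.14 against 3.91 and 3.75. Both NeuroD2 arrays were lower on both probe sets, and neither passed. The differences were -0.24 (95% interval -0.50 to 0.01, adjusted p = 0.268 over probe sets) and -0.26 (-0.49 to -0.03, adjusted p = 0.199). Groups did not overlap on 49.4% of all probe sets. All BTC values were below the group means of CDKN2A (4.64 and 4.71), a gene that U87MG is known to have lost. Whether BTC is expressed was not tested.

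NRG1, the neuregulin gene, makes many transcripts from several promoters, and its 8 probe sets gave differences from -0.40 to 0.65, with 4 above and 4 below 0. Of the 8, 2 rose and 6 did not pass. The probe set of brightness rank 5 was read at 7.63 and 7.65 on the control arrays and at 8.23 and 8.35 on the NeuroD2 arrays (difference 0.65, adjusted p = 0.0244). That of rank 4 was read at 7.93 and 7.72 against 8.43 and 8.44 (difference 0.61, adjusted p = 0.0380). These rises were 1.57-fold and 1.53-fold, and neither passed with the replicate number as a block (adjusted p = 0.0699 and 0.0867). Without 1 of the 4 arrays the log2 differences were 0.59 to 0.71 and 0.51 to 0.72. Those fits have 1 array in a group, too few to decide a call. In contrast, the brightest was read at 9.98 and 9.90 against 9.61 and 9.67 and did not pass (-0.30, 95% interval -0.50 to -0.10, adjusted p = 0.116 over probe sets and 0.0907 over genes, or 0.0173 over genes with an intensity trend). The sixth was read at 7.30 and 7.32 against 6.86 and 6.96 (-0.40, adjusted p = 0.0645) and the third at 9.23 and 9.15 against 8.996 and 8.93 (-0.23, adjusted p = 0.201). Both NeuroD2 arrays lay below both control arrays on these last 3, where 49.4% of all probe sets did not overlap between groups. The second-brightest, which shares its source transcript with the third, overlapped between groups (-0.03, adjusted p = 0.892), and the 2 dimmest differed by 0.28 and 0.17 (adjusted p = 0.139 and 0.405). The mean of the 8 probe sets differed by 0.09 (adjusted p = 0.494), so the direction for the gene depended on which probe sets were read.

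EGFR, the receptor of EREG, HBEGF and TGFA, had 8 probe sets with differences from -0.07 to 0.52. The brightest was read at 8.10 and 8.13 on the control arrays and at 8.07 and 8.14 on the NeuroD2 arrays, and differed by -0.01 (95% interval -0.20 to 0.18). It shares its source transcript in the annotation with the fourth-brightest, which differed by -0.02 (-0.23 to 0.18). On both the groups overlapped. The second-brightest was read at 7.47 and 7.48 against 7.93 and 8.06 and rose by 0.52 (0.31 to 0.72, adjusted p = 0.0405). It did not pass with the replicate number as a block (adjusted p = 0.0912). Without 1 of the 4 arrays its difference was 0.45 to 0.58, in fits with 1 array in a group, too few to decide a call. The sixth, the fifth and the third were also higher on both NeuroD2 arrays and did not pass, with differences of 0.41, 0.31 and 0.23 (adjusted p = 0.0644, 0.216 and 0.246). Of all probe sets, 49.4% did not overlap between groups. All values of the fifth and the sixth were below the NeuroD2-vector mean of MTAP (6.38), a gene that U87MG is known to have lost. The 2 dimmest, read between 3.41 and 3.82, differed by -0.06 and -0.07. The mean of the 8 probe sets differed by 0.16 (adjusted p = 0.242).

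**Figure D4:**
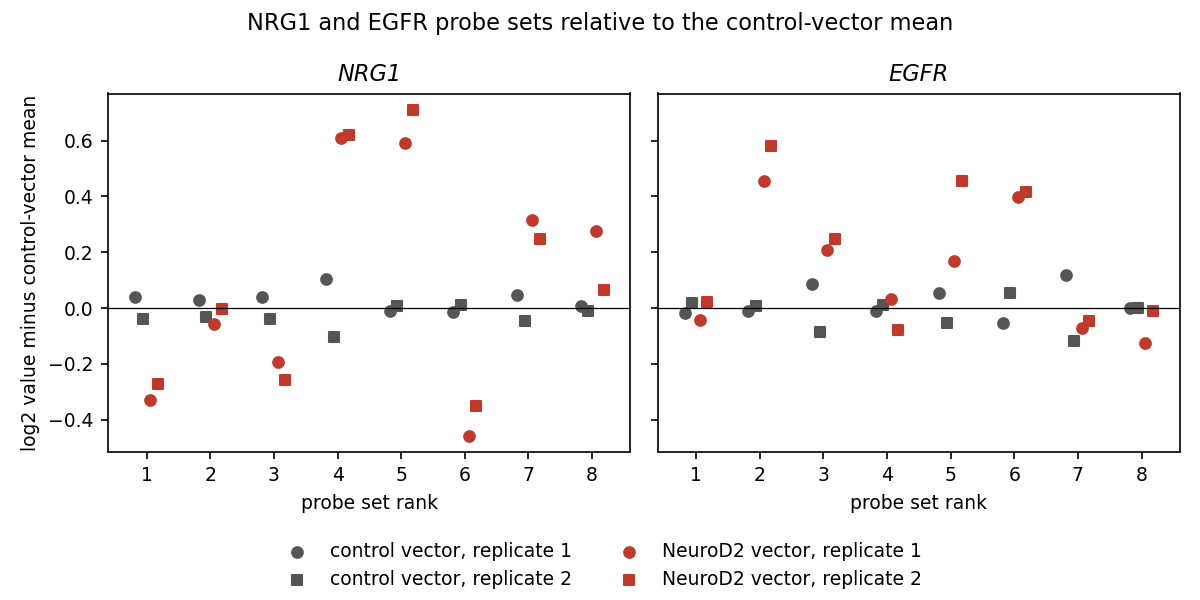
Log2 value of each NRG1 and EGFR probe set on the 4 arrays, minus that probe set's mean on the 2 control arrays (grey control vector, red NeuroD2 vector; circles replicate 1, squares replicate 2), numbered by brightness. For NRG1 the red points lie above 0 on probe sets 4 and 5 (means 0.61 and 0.65) and below it on probe set 6 (mean -0.40), and for EGFR they straddle 0 on probe sets 1 and 4 and lie above it on probe set 2 (mean 0.52).

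Whether probe sets of 1 gene moved apart was tested on each probe set's log2 value minus the mean of its gene's other probe sets on the same array. After adjustment over 38590 probe sets 0 passed (4479 had an unadjusted p below 0.05, and the smallest adjusted p was 0.0948). Of the 39 member probe sets, 15 had an unadjusted p below 0.05, or 38.5% against 11.6% of all tested: 6 of NRG1, 4 of EREG, 3 of EGFR and 2 of TGFA. Each probe set enters the values of its gene's others, so these are not separate results. The differences below are between the NeuroD2 and control arrays in this value, and are not distances between levels. For NRG1, the difference was 0.64 on the rank 5 probe set (95% interval 0.40 to 0.87, adjusted p = 0.192). On the sixth it was -0.57 (-0.80 to -0.34, adjusted p = 0.203). For EREG, the difference was 0.73 on the rank 3 probe set (0.53 to 0.94, adjusted p = 0.192). On the dimmest it was -0.87 (-1.11 to -0.64, adjusted p = 0.192). The second-brightest EGFR probe set had a difference of 0.40 (0.20 to 0.61, adjusted p = 0.251). Which exons each probe set reads was not analysed here.

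ERBB2, ERBB3 and ERBB4 did not pass on any probe set. ERBB2, the partner receptor, was read on its brightest probe set at 7.03 and 6.68 on the control arrays and at 6.87 and 6.76 on the NeuroD2 arrays, so the control arrays lay farther from each other than the group means did. The groups overlapped on all 5 of its probe sets, with differences between -0.10 and 0.12, and the brightest differed by -0.04 (95% interval -0.36 to 0.28). ERBB3, which has little kinase activity and signals through its partners, was read at 4.60 and 4.43 against 4.49 and 4.40 on its brightest probe set, and overlapped on all 3 (differences -0.07 to 0.00). ERBB4, a receptor of neuregulins, was read at 3.87 and 3.75 against 4.08 and 4.25 on its brightest probe set. That difference of 0.36 did not pass (95% interval 0.12 to 0.60, adjusted p = 0.115 over probe sets and 0.0935 over genes), and the other 2 probe sets differed by 0.06 and 0.14. All ERBB3 and ERBB4 values were below the group means of CDKN2A (4.64 and 4.71), a gene that U87MG is known to have lost. Whether these receptors are expressed was not tested.

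Genes around the receptors were read from 5 lists with 82 measured genes, of which 8 rose, 1 fell and 73 did not pass. Across all genes 1.81% rose and 2.96% fell. Some listed genes were not analysed here. Among the 5 other ligands of the family 0 passed (median difference 0.17, and 0.00 for all genes). An unadjusted p below 0.05 was found for 2 of these, and for 21.8% of all genes. NRG2 differed by 0.33, the neuregulin gene NRG4 by -0.23, EPGN by 0.22 and NRG3 by 0.17. With averaged probe sets the differences were 0.05 for NRG2, -0.08 for NRG4 and 0.07 for EPGN. Of 14 genes of ligand release 0 passed and 5 had an unadjusted p below 0.05 (median -0.04), against the 21.8% of all genes. The metalloprotease genes ADAM19 (-0.43) and ADAM10 (-0.32), FRMD8 (-0.36), whose product stabilises the ADAM17 complex, and the tetraspanin gene CD9 (-0.30) differed most, with adjusted p-values from 0.0759 to 0.102. With averaged probe sets ADAM19 differed by -0.09, FRMD8 by -0.11 and CD9 by -0.17.

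Of 21 adaptor and transducer genes 1 fell and 20 did not pass (median -0.06), and 3 had an unadjusted p below 0.05. Among all genes 4.77% were called (2.96% fell), and 21.8% had an unadjusted p below 0.05. The gene that fell was PIK3CB, a catalytic subunit of PI3 kinase, read at 7.94 and 7.92 on the control arrays and at 7.55 and 7.56 on the NeuroD2 arrays (-0.37, adjusted p = 0.0463). It did not pass with quantile normalization or with the replicate number as a block (adjusted p = 0.0853 with the block). Fits without 1 of the 4 arrays have 1 array in a group, too few to decide its call. STAT5A differed by -0.31 (-0.01 with averaged probe sets), the kinase gene SRC by 0.24 and the adaptor gene GRB2 by 0.17. Among 17 genes of receptor feedback and turnover 0 passed and 5 had an unadjusted p below 0.05 (median 0.08), again beside 21.8% of all genes. LRIG1, a membrane inhibitor of the ERBB receptors, differed by 0.38 (adjusted p = 0.0639), the phosphatase gene PTPN1 by 0.33 (adjusted p = 0.0625), SH3KBP1 by -0.28 and the ubiquitin ligase gene CBLB by 0.23 (0.11 with averaged probe sets). When probe sets were averaged per gene, 2 genes of this list passed, LRIG1 (0.36, adjusted p = 0.0493) and PTPN1 (0.31, adjusted p = 0.0444). In that fit 1187 of all 18132 genes passed.

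Of 25 measured genes known to respond to the ERK pathway, 8 rose, 0 fell and 17 did not pass (median difference 0.19). Of all genes 1.81% rose. An unadjusted p below 0.05 was found for 16 of the 25, and for 21.8% of all genes. With averaged probe sets 10 rose and 1 fell, which was the ETS factor gene ETV1 (-0.42, adjusted p = 0.0219). In that fit 1187 of all 18132 genes passed, in either direction. On their brightest probe sets ETV1 (-0.28), ETV4 (-0.28), ETV5 (-0.21) and the receptor gene EPHA2 (-0.31) had negative differences that did not pass (adjusted p from 0.0916 to 0.198). LIF, a cytokine of the interleukin-6 family, was read at 10.36 and 10.26 on the control arrays and at 11.87 and 11.83 on the NeuroD2 arrays (2.91-fold, adjusted p = 0.0019). IER3 (1.84-fold), the transcription factor gene EGR1 (1.84-fold, and 0.56 on the log2 scale with the mean of its probe sets against 0.88) and DUSP6 (1.78-fold), a phosphatase of ERK, rose too. The other 4 that rose were the RAS pathway inhibitor genes SPRY4 (0.62), SPRY2 (0.58) and SPRED2 (0.50) and the sphingosine kinase gene SPHK1 (0.48). These 4, ETV1, ETV4, ETV5 and EPHA2 fell outside the naming rule and were chosen after their values were seen. Fits without 1 of the 4 arrays have 1 array in a group, too few to decide the calls of this list. This list overlaps what earlier results of these data had shown and is no independent evidence of a direction.

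**Figure D5:**
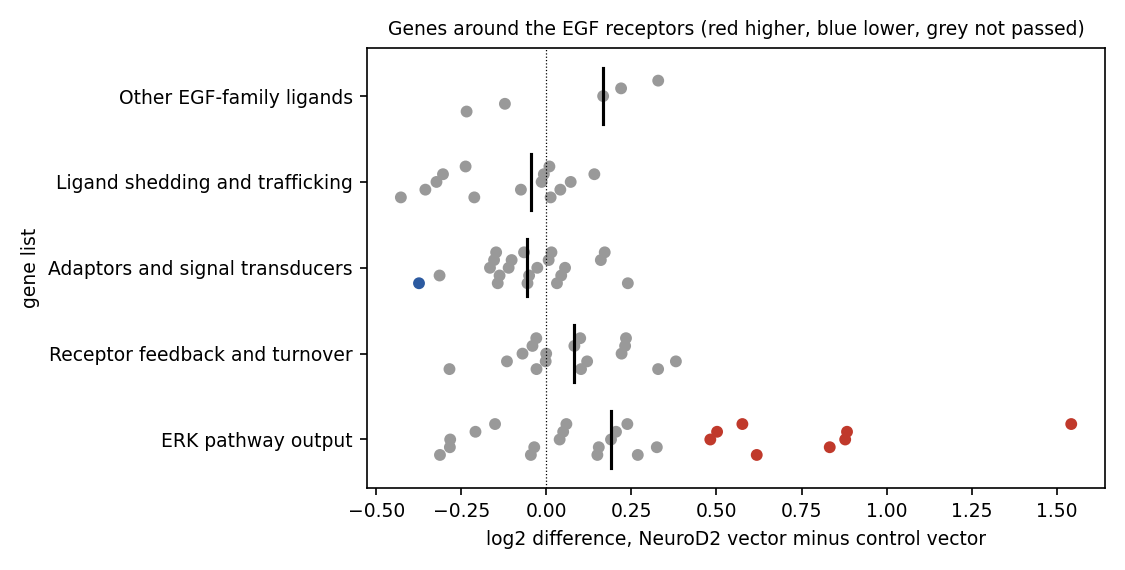
Log2 difference between the NeuroD2 vector and the control vector for the 82 measured genes of the 5 lists, each on its brightest probe set (points; vertical bars are list medians, and vertical jitter has no meaning). The 8 red points of the ERK list lie between 0.48 and 1.54, and 1 gene of the adaptor list, PIK3CB, is lower at -0.37.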

How the data were processed

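RNA of 4 U87MG samples was hybridised to human PrimeView arrays (biotin label, 3' IVT Express kit, per the labels' protocols). The authors' deposited table of 49395 probe sets was read as log2 values, from their range of 2.65 to 14.29 and near-equal array medians (5.98 to 5.99). How the arrays were scanned, corrected for background and normalized is not given in the sources used here. Probe sets with exactly 1 platform symbol (44988, 18132 genes) were used. For each gene the brightest probe set (mean of all 4 arrays) stood for it, and every probe set was also fitted on its own.

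The NeuroD2 and control arrays were compared by limma 3.58.1 in R 4.3.3, with lmFit and eBayes, 1 term for the group, two-sided tests and 2 residual degrees of freedom. P-values were adjusted by Benjamini and Hochberg's method, over all genes or over all probe sets, with a threshold of 0.05. A further fit, added after the data were seen, took each probe set minus the mean of its gene's other probe sets on the same array. The fits were tested on simulated data. An exact permutation test of 2 arrays against 2 was not used, since it cannot reach the threshold.

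The members and lists were chosen with earlier results of these data known. The named genes were every member on every probe set, NEUROD2, VIM, CD44, CDKN2A, MTAP and PTPRC, and up to 4 genes per pathway list with the largest absolute difference. The alternatives averaged a gene's probe sets, dropped dim genes (below the median level), made the prior robust or dependent on intensity, quantile-normalized or median-centred the arrays, dropped each array in turn, or used the replicate number as a block. Promoter windows come from RefSeq (GRCh38.p14). Motifs were searched on both strands.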

Additional observations from a re-analysis of the deposited data

Results flagged for a closer look

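The hybridisation spikes, which belong to no gene comparison, read 0.39 higher (log2) on the NeuroD2 arrays than on the control arrays.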

How the results depend on the processing

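HBEGF and EREG stayed higher, TGFA stayed lower, and all 3 passed over genes under every setting that kept all 4 arrays. These were the replicate block, a robust prior, an intensity trend, median centring, quantile normalization, the filter on dim genes and averaged probe sets. Scalings moved the median difference of all genes by under 0.01. The replicate number was not shown to pair the arrays (deviations of same-numbered arrays correlated at r = 0.08), and with it as a block 335 genes passed in place of 864, and 2 member probe sets rose and 1 fell in place of 8 and 2. The calls lost with it were the EGFR probe set, both of HBEGF, both of NRG1, the brightest of EREG and of TGFA, and the ERK genes SPRED2 and SPHK1. PIK3CB was lost with the block and with quantile normalization, leaving 0 adaptor genes. With the intensity trend 2056 genes passed, among them 13 ERK, 4 release and 3 feedback genes, and 2 members (NRG1 at -0.30 and TGFA) and 5 member probe sets fell. The filter on dim genes left 9066 genes, of which 2081 passed, among them 13 ERK, 5 release and 4 feedback genes. Of the 9066, 37.3% had an unadjusted p below 0.05. With this filter 2 members (again NRG1, at -0.30, and TGFA) and 4 member probe sets fell, and no other EGF-family ligand was left to test. With averaged probe sets 1187 genes passed, among them 11 ERK and 2 feedback genes. Averaging turned the sign of uncalled differences in EGFR (0.16), ERBB2 (0.014) and NRG1 (0.095). Quantile normalization turned that of EGFR (0.0052).

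Leaving out 1 array at a time gave 0 to 66 genes past the threshold, 0 rising and 0 to 1 falling members, 0 to 2 rising and 0 falling member probe sets, 0 adaptor and 0 to 1 ERK genes. These fits gave differences of 0.73 to 1.03 for EREG, 0.74 to 0.84 for HBEGF and -1.04 to -0.79 for TGFA. Of the 6 uncalled members, 3 changed sign among them: EGFR from -0.044 to 0.023, ERBB2 from -0.22 to 0.13 and ERBB3 from -0.15 to 0.023. The cause of these changes was not tested. The number of arrays limits the precision.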
